A study of Mus musculus with 36 samples.

Results

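Kidneys of mice fed a diet without carbohydrate (CHO-free) for 3 days were compared directly with kidneys of mice fed a diet without fat (fat-free) for 3 days. The arrays were chosen by their diet label alone, 5 CHO-free and 4 fat-free of the 36 arrays of the series, 1 array per mouse. No control array entered the difference, and the 5 arrays of mice on the matching Control diet are given beside it as a reference level. All mice were C57BL/6 males of 10 to 12 weeks, had eaten SDS chow freely for 7 days before the diets began and ate the CHO-free, fat-free or Control diet freely. They were housed 3 to 4 to a cage, and the cage of each mouse was not given. None had undergone surgery. Per the methods, arrays that stood apart after normalization were left out by the authors, in the fat-free group among others. The study asked which missing nutrient goes with protection of the kidney when its blood supply is cut and restored after a short diet.

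The diets differed in more than the removed nutrient. In the CHO-free diet protein took the place of carbohydrate while fat stayed, and in the fat-free diet protein took the place of fat while carbohydrate stayed, so the CHO-free mice also ate food much richer in protein. Carbohydrate, fat and protein therefore differed at once between the groups, and their parts cannot be told apart. Food eaten during these 3 days by these mice was not used here.

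As background, the proximal tubule of the kidney takes up glutamine from blood and removes its nitrogen as ammonia. The ammonia leaves in the urine and carries acid with it, and the carbon goes into glucose. A diet rich in protein brings more amino nitrogen and more acid from sulphur amino acids. The kidney also clears drugs and oxidants through enzymes and exporters that the transcription factor NRF2 switches on from DNA elements called antioxidant response elements.

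Values are log2 signals per probe set, a group of short probes against 1 transcript, so a difference of 1 is a doubling. Markers of kidney were present, with proximal tubule, thick ascending limb and collecting duct genes measured on all 9 arrays: the 10 proximal tubule markers averaged 11.14 to 11.24 on the CHO-free and 11.10 to 11.30 on the fat-free arrays, with 1 called higher (Gsta2) and 1 lower (Slc7a13). Across whole arrays, each array correlated with the others of its diet at a median of 0.989 to 0.995. RNA of whole kidney was measured, so fewer cells of a type and less RNA per cell cannot be told apart.

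Of 45141 probe sets, 564 differed between the diets at a false discovery rate under 5% and a change of at least 1.5-fold in limma's test, which is 1.25% of those tested. They were split evenly, with 283 higher (0.627%) and 281 lower (0.622%) on CHO-free. These probe sets named 163 genes that were higher and 215 that were lower, and no gene was called both ways. A change of at least 2-fold was found for 43 probe sets in each direction. In 399 of the 564 every CHO-free array lay on the same side of every fat-free array, 223 above and 176 below. Over all probe sets such full separation occurred in 2.72% above and 2.04% below. Subtracting each array's median moved the split to 232 higher and 350 lower, while the median difference over all probe sets was 0.01 on the log2 scale without it.

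The number of calls depended on single arrays. Replicates are numbered in the order of the records. Without CHO-free replicate 2 there were 1507 calls, 559 higher and 948 lower. Leaving out any 1 of CHO-free replicates 3 and 4 and fat-free replicates 2 and 4 gave 338 to 368. None of the 564 differences changed sign in any of these fits. They were picked from these same arrays, which makes a change of sign unlikely.

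Signs of RNA integrity also differed between arrays beside the diet. The Gapdh control probe sets at the 3′ and 5′ ends of the transcript differed by 1.85 ± 0.62 (log2, SD, n = 5) on CHO-free and by 1.27 ± 0.37 (SD, n = 4) on fat-free arrays, a larger gap meaning less signal from the 5′ end. The difference between diets, 0.58, gave p = 0.167 in a two-sided exact permutation test (smallest possible p 0.00794). The same gap for beta-actin was 3.55 ± 0.59 against 2.75 ± 0.21 (p = 0.0476, adjusted over the 3 control transcripts 0.143, exact test), and for Tfrc it was 0.70 against 0.72 (p = 0.905). CHO-free replicates 3 and 4 had the highest gaps for Gapdh and beta-actin. With the Gapdh gap as a covariate there were 288 calls, 166 of them higher and 122 lower, and without CHO-free replicates 3 and 4 there were 212, 134 higher and 78 lower. Of the 59 called probe sets named by the rule given below, 42 stayed called with the covariate, 35 without these 2 arrays and 41 in the fit of the 9 arrays alone. These losses are named beside the genes, and the part of RNA integrity in them was not tested. Genes added after their values were seen, such as Abcc2 and Ephx1, are not among the 59.

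The largest difference belonged to glutamine transport. Slc38a3 encodes SNAT3, the sodium-coupled transporter that brings glutamine into proximal tubule cells from the blood side. On the 5 CHO-free arrays its log2 signal was 10.44, 9.44, 10.11, 10.02 and 10.20, and on the 4 fat-free arrays it was 6.73, 6.60, 6.70 and 6.27. Every CHO-free kidney thus lay far above every fat-free kidney, and the Control mean was 5.95 ± 0.39 (SD, n = 5). The difference was 3.46 ± 0.23 (SE), or 11-fold, with an adjusted p of 1.06e-09 in limma. It stayed between 3.18 and 3.61 and was called in all 21 other settings tried. A second, dim Slc38a3 probe set differed by 0.44 and was not called (adjusted p = 0.0431, limma).

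The enzyme that releases ammonia from glutamate inside mitochondria, glutamate dehydrogenase (Glud1), was higher as well. Its values were 12.44, 12.47, 12.19, 12.59 and 12.69 on CHO-free and 11.46, 11.47, 11.28 and 11.49 on fat-free arrays, against a Control mean of 11.04 ± 0.05 (SD, n = 5). The groups did not overlap, and the difference of 1.05 ± 0.10 (SE, adjusted p = 4.16e-07, limma) was called in all 21 other settings. A second Glud1 probe set gave 0.80 with an adjusted p of 0.000348.

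Fam25c, whose product has no settled role, had the next largest rise after Slc38a3. It read 9.41, 8.93, 9.38, 9.46 and 9.60 on CHO-free and 7.05, 7.32, 7.21 and 7.21 on fat-free arrays, with no overlap, a difference of 2.16 ± 0.18 (SE, adjusted p = 2.73e-08, limma) and a Control mean of 6.57. In RefSeq's mouse annotation (GRCm38.p6) Fam25c is the next gene after Glud1 among those the array measures. Of 17031 such neighbouring pairs, 15 had both genes called, 8 of them in the same direction.

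The other members of the ammonia list were less clear. Slc25a10, the mitochondrial dicarboxylate carrier, read 10.47, 9.82, 10.49, 10.21 and 10.04 on CHO-free and 9.53, 9.67, 9.80 and 9.26 on fat-free arrays, a rise of 0.64 ± 0.15 (SE, adjusted p = 0.0208, limma). The groups came close without overlapping, and the call held in 12 of 21 other settings. It was lost with the Gapdh covariate, without CHO-free replicates 3 and 4 together, in the fit of the 9 arrays alone and without fat-free replicate 1, fat-free replicate 4, CHO-free replicate 1 or CHO-free replicate 3, each with the direction kept. A second, dimmer Slc25a10 probe set differed by 0.06 ± 0.20 (SE) with overlap and was not called (adjusted p = 0.929, limma).

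The ammonia exporters of the collecting duct did not pass the test. Rhcg was 8.25 to 8.87 on CHO-free and 8.03 to 8.22 on fat-free arrays (difference 0.42 ± 0.18, SE, adjusted p = 0.208, limma). Rhbg was 7.98 to 8.27 and 7.44 to 7.87 (difference 0.43 ± 0.18). In both genes the groups did not overlap. The glutamine carrier Slc1a5 (0.42 ± 0.16) and the Slc38a3 relative Slc38a7 (0.22 ± 0.14) were not called. Nor were the citric acid cycle enzyme Ogdh (0.22 ± 0.22), the water and ammonia channel Aqp8 (0.12 ± 0.13) or the sodium-proton exchanger Slc9a3 (-0.01 ± 0.13). The only probe set named for Pck1, which makes phosphoenolpyruvate from glutamine carbon, had signals of 2.82 to 3.05 and 2.53 to 2.73, close to the bottom of the scale, and a difference of 0.32 ± 0.10 that was not called. Of the 11 measured members, 3 were higher and none lower, and 10 of 11 differences were positive with a median of 0.42. Over all 17097 genes, each by its brightest probe set, 0.772% were called higher and 0.801% lower and the median difference was 0.0001. With the Gapdh covariate 2 of the 11 were called higher.

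**Figure D1:**
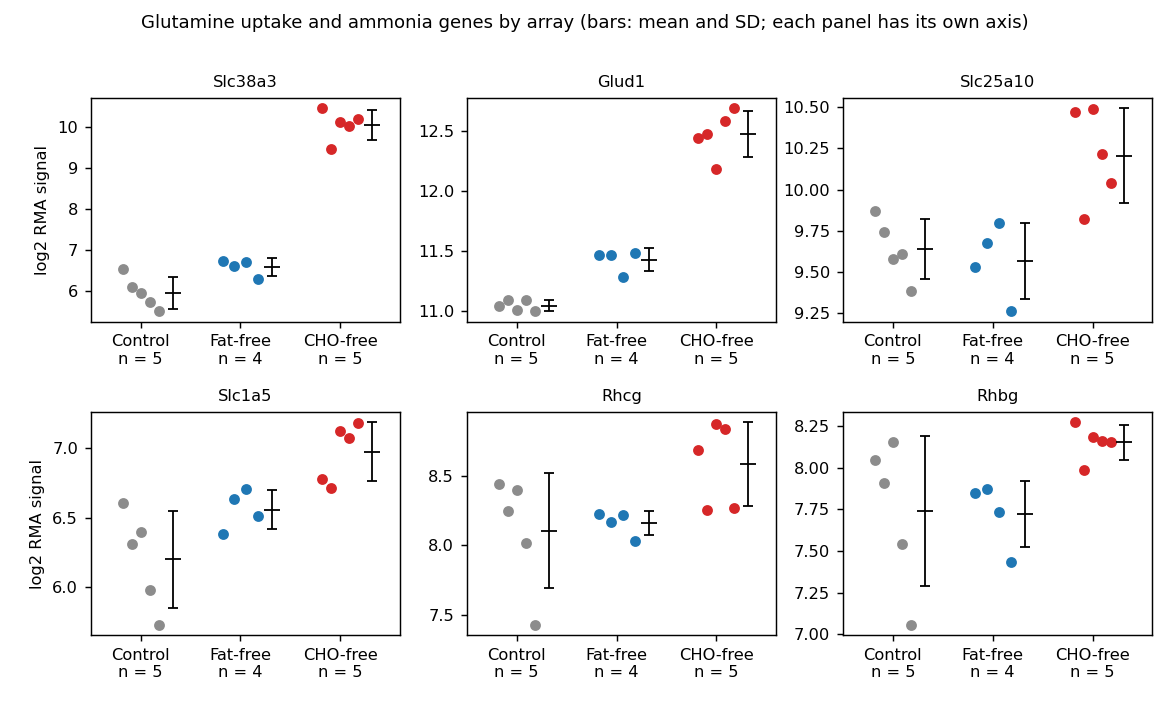
Log2 signal of 6 genes of glutamine uptake and ammonia handling on each array (points), with the mean and SD of each diet (bars), for Control (n = 5), fat-free (n = 4) and CHO-free (n = 5); the vertical axes differ. Slc38a3 lies at 9.44 to 10.44 on CHO-free arrays and at 6.27 to 6.73 on fat-free arrays, and the gaps for Slc1a5, Rhcg and Rhbg are far smaller.

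Genes of acid transport moved in part. The chloride-bicarbonate exchanger of acid-secreting intercalated cells, Slc4a1, read 8.91, 8.80, 8.97, 9.11 and 8.95 on CHO-free and 8.01, 8.07, 8.30 and 8.19 on fat-free arrays. These did not overlap, and the difference of 0.81 ± 0.11 (SE, adjusted p = 5.88e-05, limma) was called in all 21 other settings. Aqp6, an anion-conducting water channel of the same cells, was 0.72 ± 0.19 higher (adjusted p = 0.0349, limma) and kept its call in 9 of 21, lost with the Gapdh covariate (adjusted p = 0.146, limma), without CHO-free replicates 3 and 4 together, in the fit of the 9 arrays alone and without any 1 of CHO-free replicates 1, 3 and 4 or fat-free replicates 1, 2 and 4. Car4, the membrane carbonic anhydrase, was lower by 0.71 ± 0.16 (log2, SE, adjusted p = 0.0176, limma). This call was lost with the Gapdh covariate (adjusted p = 0.0795, limma), without CHO-free replicates 3 and 4 together, in the fit of the 9 arrays alone and without fat-free replicate 2, CHO-free replicate 4 or CHO-free replicate 5.

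Of 19 measured acid-base genes, 2 were higher and 1 lower, with a median of 0.12. The basolateral sodium-bicarbonate carrier Slc4a4 (0.57 ± 0.13, adjusted p = 0.0138, limma) and carbonic anhydrase 2 (Car2, 0.40 ± 0.09) reached the false discovery rate without the 1.5-fold minimum. Of 6 markers of intercalated cells, Slc4a1 and Aqp6 were called higher and the others were not: Foxi1, their transcription factor, differed by 0.41, Atp6v0d2, a proton pump subunit, by -0.11, Slc26a4, the exchanger of base-secreting cells, by -0.21 and Hepacam2 by -0.50. The mean of the 6 was 7.92 to 8.15 on CHO-free and 7.81 to 7.94 on fat-free arrays.

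Solute carriers as a family were called 10 times higher and 11 times lower among 328 measured, against 0.772% and 0.801% of all genes, a family counted after its values were seen. Slc26a6, an anion exchanger for chloride, oxalate and formate in the proximal tubule, read 7.35, 7.08, 7.40, 7.50 and 8.12 on CHO-free and 5.95, 5.92, 6.30 and 6.05 on fat-free arrays, a difference of 1.43 ± 0.18 (SE, adjusted p = 3.96e-05, limma). Slc13a2, which takes citrate back from urine, ranged over 8.99 to 9.33 against 7.56 to 8.19 and was higher by 1.22 ± 0.15 (SE, adjusted p = 3.72e-05, limma). Both were called in all 21 other settings, and neither showed overlap between the diets. Slc16a6, a ketone and monocarboxylate carrier, read 8.39, 7.24, 8.63, 7.94 and 8.32 against 6.72, 7.02, 6.70 and 6.22, without overlap, and rose by 1.44 ± 0.19 (SE, adjusted p = 6.74e-05, limma).

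Phosphate, sulphate and amino acid carriers were among those that fell. Slc34a3, a sodium-phosphate cotransporter of the brush border, read 6.12, 6.44, 6.27, 6.72 and 6.30 on CHO-free and 6.95, 7.35, 7.76 and 7.96 on fat-free arrays. All CHO-free values lay lower, with a difference of -1.14 ± 0.19 (SE, adjusted p = 0.0012, limma), called in 20 of 21 other settings. It was the only called member among 20 genes of phosphate, vitamin D and calcium handling, whose median was -0.08. The sulphate carriers Slc13a1, of the brush border, and Slc26a1, of the blood side, were lower by 0.65 ± 0.12 and 0.77 ± 0.18 on the log2 scale (SE). Neither was called with the Gapdh covariate, and single arrays ended both calls, CHO-free replicate 3 for Slc13a1 and CHO-free replicate 3, CHO-free replicate 4 or fat-free replicate 2 for Slc26a1.

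Slc7a7 moves cationic amino acids out of the cell on the blood side and read 8.15, 8.26, 7.95, 8.55 and 8.10 on CHO-free against 8.39, 9.21, 9.55 and 9.69 on fat-free arrays. CHO-free kidneys were lower with some overlap, by 1.01 ± 0.20 (log2, SE, adjusted p = 0.00593, limma), a call lost in the fit of the 9 arrays alone (adjusted p = 0.0627, limma) and with the beta-actin covariate. Slc7a13, a cystine and acidic amino acid carrier of the proximal tubule, was lower by 0.67 ± 0.13 (log2, SE, adjusted p = 0.00394, limma), a call lost without CHO-free replicate 4, without CHO-free replicates 3 and 4 together, in the fit of the 9 arrays alone and with the Gapdh covariate. The proline carrier Slc6a20a was higher by 0.65 ± 0.14 (SE, adjusted p = 0.00999, limma), not with the Gapdh covariate. Of 29 amino acid and peptide transporters, 1 was higher and 2 were lower around a median of 0.04.

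Slc22a26 and Slc22a27, neighbouring organic anion transporters of similar sequence, were both lower. Slc22a27 fell by 1.22 ± 0.21 (log2, SE, adjusted p = 0.0014, limma) and was called in all 20 other settings that tested it, while its brightest probe set (-1.32) was not called without fat-free replicate 4. Slc22a26 fell by 1.15 ± 0.26 (adjusted p = 0.014, limma), a call lost without fat-free replicate 4, without CHO-free replicates 3 and 4 and in the fit of the 9 arrays alone. Probes may not tell such relatives apart.

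Targets of NRF2 formed the list with the most called members of the 48 lists. Of 32 measured, 6 were higher and none lower, against 0.772% and 0.801% of all genes, and the median difference was 0.19. Positive differences were found for 24 of the 32, and 16 had an unadjusted p under 0.05. In a fit of all genes by their brightest probe set, 3284 of 17097 reached this p, which applies to the counts for other lists too. The mean over the 32 ranged over 9.08 to 9.31 on CHO-free and 8.82 to 8.97 on fat-free arrays, and 8.78 to 8.91 on Control arrays. With the Gapdh covariate 5 were called and without CHO-free replicates 3 and 4 there were 6, all higher.

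The glutathione transferase Gsta2 read 11.76, 11.83, 11.99, 12.04 and 12.30 on CHO-free and 10.66, 10.69, 10.99 and 11.11 on fat-free arrays. The quinone reductase Nqo1 read 8.48, 8.44, 8.68, 8.84 and 9.39 and 7.78, 7.62, 7.76 and 7.51. In both, all CHO-free arrays lay higher, by 1.12 ± 0.13 for Gsta2 (SE, adjusted p = 8.88e-06, limma) and by 1.10 ± 0.15 for Nqo1 (SE, adjusted p = 0.000184, limma). Control means were 10.47 ± 0.26 and 7.64 ± 0.18 (SD, n = 5), beside fat-free means of 10.86 and 7.67. Gsta2 was called in all 21 other settings and Nqo1 in 20.

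The glutathione transferase Gstm1 was higher by 0.95 ± 0.18 (SE, adjusted p = 0.00322, limma), at 10.22 to 10.71 against 9.25 to 9.94. The exporters of conjugated compounds rose with them: Abcc4, also of the proximal tubule, by 0.95 ± 0.17 (adjusted p = 0.00191, limma) and Abcc2, of the brush border, by 0.82 ± 0.16 (adjusted p = 0.00402, limma). Neither Abcc4 nor Abcc2 overlapped between the diets. The epoxide hydrolase Ephx1 was higher by 0.59 ± 0.16 (adjusted p = 0.0417, limma) with overlap, 8.11 to 8.51 against 7.20 to 8.32. Gsta and Gstm genes have close relatives whose transcripts the probes may share.

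Other members of the list were not called. Hmox1, heme oxygenase, differed by -0.05 ± 0.24, and the glutathione synthesis genes Gclc and Gclm by -0.30 ± 0.21 and 0.09 ± 0.09. The thioredoxin reductase Txnrd1 reached the false discovery rate (adjusted p = 0.0235, limma) with a rise of 0.45, under the fold minimum. Nfe2l2, the gene of NRF2 itself, differed by -0.27 ± 0.14 in transcript level, not called.

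The antioxidant response element core TGACNNNGC was searched on both strands in the 250 bases before each RefSeq start site (GRCm38.p6). It occurred for 2 of the 6 called targets, 7 of the 27 list members with a promoter entry and 11.5% of all 27025 genes. The bases next to the start sites of those 2 genes, the exporters Abcc2 and Abcc4, are shown 5′ to 3′ on the gene's strand because they carry the match, which is in capitals. Abcc4 has 2 start sites in the table. A match is a description of these letters only, and the other called targets had none within this window.
Abcc2, chr19:43782188-43782307, plus strand: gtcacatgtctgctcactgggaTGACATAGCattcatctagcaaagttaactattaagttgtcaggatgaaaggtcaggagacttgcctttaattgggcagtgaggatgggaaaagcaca
Abcc4, chr14:118676932-118677051, minus strand: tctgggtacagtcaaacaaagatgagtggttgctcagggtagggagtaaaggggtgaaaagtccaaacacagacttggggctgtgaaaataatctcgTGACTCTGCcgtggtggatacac
Abcc4, chr14:118706220-118706339, minus strand, match on the opposite strand: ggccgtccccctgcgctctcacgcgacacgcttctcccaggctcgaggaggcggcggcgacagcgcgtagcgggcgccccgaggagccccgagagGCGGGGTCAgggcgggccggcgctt

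**Figure D2:**
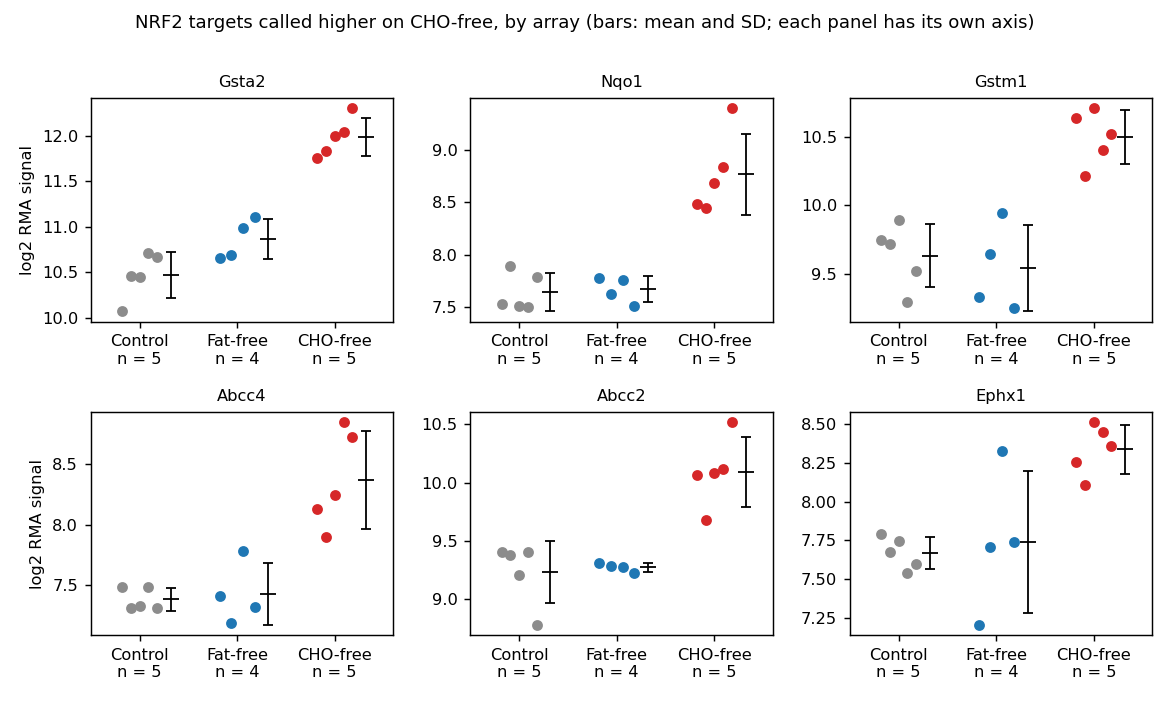
Log2 signal of the 6 NRF2 targets called higher on CHO-free, on each array (points) with the mean and SD of each diet (bars), for Control (n = 5), fat-free (n = 4) and CHO-free (n = 5); the vertical axes differ. Apart from Ephx1, every CHO-free point lies above every fat-free point.

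Enzymes of the pentose phosphate pathway, which makes NADPH, were the 2 called genes of 10 on fructose and glucose use, both higher (median 0.09). Transketolase (Tkt) read 11.38, 10.90, 11.66, 11.66 and 11.54 on CHO-free and 10.49, 10.58, 10.59 and 10.59 on fat-free arrays, without overlap (0.86 ± 0.13, SE, adjusted p = 0.000375, limma). Phosphogluconate dehydrogenase (Pgd) was higher by 0.83 ± 0.20 with overlap (adjusted p = 0.0234, limma). Its call was lost with the Gapdh covariate (difference 0.53), without CHO-free replicates 3 and 4 together, in the fit of the 9 arrays alone and without any 1 of fat-free replicates 1, 2 and 4 and CHO-free replicates 3 and 4. The genes of fructose use and of the response to glucose on the same list were not called: Khk, ketohexokinase, differed by -0.13 ± 0.08, and Txnip, a gene that glucose induces, by -0.39 ± 0.14.

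Vitamin B6 and methyl group enzymes rose in part. Pyridoxal kinase (Pdxk), which makes the vitamin B6 cofactor of amino acid enzymes, read 9.85, 9.49, 9.88, 9.72 and 9.73 on CHO-free and 8.67, 8.76, 9.01 and 8.52 on fat-free arrays by its brightest probe set. The groups were apart by 0.99 ± 0.16 (SE, adjusted p = 0.000717, limma), and a second probe set gave 1.26 ± 0.13 (SE). Sardh, which oxidises sarcosine, was higher by 0.66 ± 0.17 (adjusted p = 0.0365, limma), kept in 9 of 21 other settings and lost with the Gapdh covariate (adjusted p = 0.172, limma), without CHO-free replicates 3 and 4 together and on leaving out any 1 array except CHO-free replicate 2 and fat-free replicate 3. Bhmt, which uses betaine to remake methionine, read 6.76, 6.31, 7.45, 6.33 and 8.19 against 6.37, 5.28, 5.25 and 6.22 and differed by 1.23 ± 0.36, with overlap and without a call (adjusted p = 0.0634, limma). Of 21 genes of this list 2 were higher, none lower and 17 of 21 differences were positive (median 0.22).

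Calls for other amino acid breakdown were few and even. Among 40 enzymes, 1 was higher (Gldc, of glycine cleavage, 0.60 ± 0.16) and 1 lower (Ddo, D-aspartate oxidase, -0.63 ± 0.14), and the median was 0.09. An unadjusted p under 0.05 was reached by 17 of the 40, beside 3284 of all 17097 genes, and 24 of the 40 differences were positive. Gldc passed in 12 of 21 other settings, and not in the fit of the 9 arrays alone, without CHO-free replicates 3 and 4 together or without any 1 of fat-free replicates 1, 2 and 4 and CHO-free replicates 1, 4 and 5. Ddo passed in 17 and not in the fit of the 9 arrays alone or without fat-free replicate 2 or CHO-free replicate 5. Of 22 genes of the ATF4 and GCN2 response, which senses amino acid shortage, none was called. At an unadjusted p under 0.05 there were 4. Psph, of serine synthesis, differed by -0.49 ± 0.13 and Atf5, a transcription factor of that response, by 0.55 ± 0.15. Both passed the false discovery rate and not the 1.5-fold minimum, and without CHO-free replicate 2 Atf5 was called.

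Insig1, a sterol sensor of the endoplasmic reticulum that holds back cholesterol synthesis, read 8.86, 8.40, 8.73, 8.44 and 9.20 on CHO-free and 7.59, 6.89, 6.92 and 7.12 on fat-free arrays. The diets did not overlap, and the difference of 1.59 ± 0.19 (SE, adjusted p = 1.21e-05, limma) was called in all 21 other settings. The sterol isomerase Ebp was higher by 0.67 ± 0.11 (adjusted p = 0.00067, limma), also in all 21. The other members of the list were not called: Sqle, squalene epoxidase, differed by 0.08, Cyp51, lanosterol demethylase, by 0.08, and Idi1, isopentenyl isomerase, by -0.56. Of 19 measured, 2 were higher, none lower and 15 of 19 differences were positive (median 0.31). With each array's median subtracted 1 was called lower.

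Fatty acid genes showed no common shift. Acot3, a peroxisomal acyl-CoA thioesterase, read 8.23, 7.96, 7.44, 7.08 and 7.61 against 6.66, 6.46, 6.55 and 6.30, all CHO-free arrays higher, by 1.17 ± 0.18 (SE, adjusted p = 0.000469, limma). Ppara, the receptor that induces fatty acid oxidation, was higher by 0.71 ± 0.14 (adjusted p = 0.00506, limma), a call lost without CHO-free replicates 3 and 4 together (adjusted p = 0.0686, limma). Of its 32 list members these 2 were called and the median was 0.03. Differences on this list ran from -1.22, which was not called, to 1.17, and 16 of 32 were positive. Cpt1a, the carnitine gate to mitochondria, differed by -0.05 ± 0.10, Cyp4a10 by 0.61 ± 0.22 and Pdk4, which restrains glucose oxidation, by -0.63 ± 0.31. None of 19 genes of fatty acid synthesis was called in limma (3 at an unadjusted p under 0.05, median 0.02), Fasn, the synthase, differing by 0.06 ± 0.36 and Scd1, the desaturase, by -0.57 ± 0.28. None of 7 genes listed for ketone and monocarboxylate use was called either (1 at an unadjusted p under 0.05). The carrier Slc16a6, called higher as given above, is not among these 7.

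Sugar handling differed at few genes. G6pc, which releases free glucose in the last step of gluconeogenesis, read 9.70, 9.78, 9.01, 9.86 and 9.17 on CHO-free and 10.77, 10.55, 10.31 and 9.92 on fat-free arrays. CHO-free kidneys were lower without overlap, by 0.88 ± 0.21 (log2, SE, adjusted p = 0.0209, limma), and the Control mean of 10.85 ± 0.39 (SD, n = 5) was higher than both diet means. Of 16 genes of gluconeogenesis and glucose transport it was the only one called, and the median was -0.05. The call held in 13 of 21 other settings and was lost with the Gapdh covariate, without CHO-free replicates 3 and 4 together, in the fit of the 9 arrays alone and without fat-free replicate 1, fat-free replicate 2 or CHO-free replicate 3. The glucose carrier of the blood side, Slc2a2, was lower by 0.47 ± 0.12, under the fold minimum. None of 23 glycolysis genes was called in limma (8 at an unadjusted p under 0.05), Ldha differing by -0.29 ± 0.08 and Aldoc by 0.58 ± 0.17. Aldoc was called with the Gapdh covariate or without fat-free replicate 3, and without CHO-free replicate 2 there were 3 calls on this list.

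Of the 12 genes with the largest rise whose arrays did not overlap, several have no tie to these lists. Bcl7c, a subunit of chromatin remodelling complexes, read 7.86, 7.17, 7.97, 7.96 and 8.13 on CHO-free and 5.94, 6.20, 6.33 and 5.93 on fat-free arrays (1.72 ± 0.14, SE, adjusted p = 2.73e-08, limma). Col27a1, a fibrillar collagen, rose by 1.59 ± 0.15 (adjusted p = 6.26e-07, limma), and its second probe set by 1.37. Cpeb3, which binds the tails of messenger RNAs, rose by 1.29 ± 0.14, and a second, brighter probe set by 1.26. Noct, a phosphatase named nocturnin for its daily rhythm, rose by 1.24 ± 0.20 and Klhdc7a by 1.31 ± 0.23. All of these were called in every other setting that tested them. A second, dim Bcl7c probe set differed by 0.01 and was not called (adjusted p = 0.982, limma).

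Slc18a1, a vesicular amine transporter, was less secure: the dimmer of its probe sets rose by 1.39 ± 0.31 (adjusted p = 0.0146, limma) while the brighter one differed by 0.20. The call was lost without fat-free replicate 3, fat-free replicate 4 or CHO-free replicate 3, and without CHO-free replicates 3 and 4 together. Gpc1, a heparan sulphate proteoglycan of the cell surface, read 7.24, 6.44, 6.94, 6.95 and 7.16 against 6.00, 6.00, 5.94 and 5.44. It rose by 1.10 ± 0.20 (adjusted p = 0.00225, limma) and was the only called gene of 15 on urea transport and the osmotic response (median 0.17). Of 21 retinoid and carbonyl enzymes (median -0.04), the aldehyde dehydrogenase Aldh1a7 alone was called. It rose by 1.08 ± 0.23 with overlap between the diets (adjusted p = 0.00913, limma), a call lost without fat-free replicate 4 and in the fit of the 9 arrays alone.

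The largest falls were of other kinds. Anxa13, an annexin of epithelial membranes, read 3.28, 4.12, 3.97, 3.65 and 3.46 on CHO-free and 5.04, 5.39, 5.14 and 5.85 on fat-free arrays, a fall of 1.66 ± 0.20 (log2, SE, adjusted p = 1.60e-05, limma). Hsd3b2, a steroid dehydrogenase, read 8.74, 8.92, 9.18, 8.62 and 8.29 against 9.59, 9.91, 9.96 and 10.18 and was lower by 1.16 ± 0.15 (log2, SE, adjusted p = 3.96e-05, limma). Both were separate between the diets and called in all 21 other settings. Rnf183, a ubiquitin ligase of the collecting duct, fell by 1.48 ± 0.17, Degs2, a sphingolipid hydroxylase, by 1.49 ± 0.26, Syn3, a synapsin, by 1.59 ± 0.23 and B4galt5, a galactosyltransferase of glycolipids, by 1.12 ± 0.17 (log2, SE). Dim probe sets of Syn3 (-0.17) and B4galt5 (-0.40) were not called, and a further Syn3 set was called lower (-1.47).

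Further calls of this group were lost without the 2 CHO-free arrays with the highest Gapdh gap. These were Olfml1 (-1.19 ± 0.24), the protease inhibitor Tfpi2 (-1.15 ± 0.24) and the motor Myo5a (-1.12 ± 0.24), each with the direction kept. With the Gapdh covariate each stayed called (adjusted p = 0.0265, 0.0486 and 0.0248 in that order, limma), and with the beta-actin covariate none did. The fit without these 2 arrays also rests on fewer CHO-free arrays, and the part of RNA integrity was not tested. Of 18 androgen-responsive genes of male kidney, 2 were lower and none higher (median -0.11): Acsm3, a medium-chain acyl-CoA synthetase, by 0.85 ± 0.17 and the cytochrome P450 Cyp2j13 by 0.59 ± 0.13 (log2, SE). Kap and Odc1, hallmark androgen targets of this organ, differed by -0.13 ± 0.07 and -0.09 ± 0.20. Differences on this list ran from -1.10, which was not called, to 0.30, and 5 of 18 were positive. Neither Acsm3 nor Cyp2j13 was called in the fit of the 9 arrays alone or without CHO-free replicates 3 and 4 together. With the Gapdh covariate Cyp2j13 was not called (adjusted p = 0.081, limma), and leaving out any 1 of fat-free replicates 1 and 2 and CHO-free replicates 3, 4 and 5 ended the call of Cyp2j13.

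**Figure D3:**
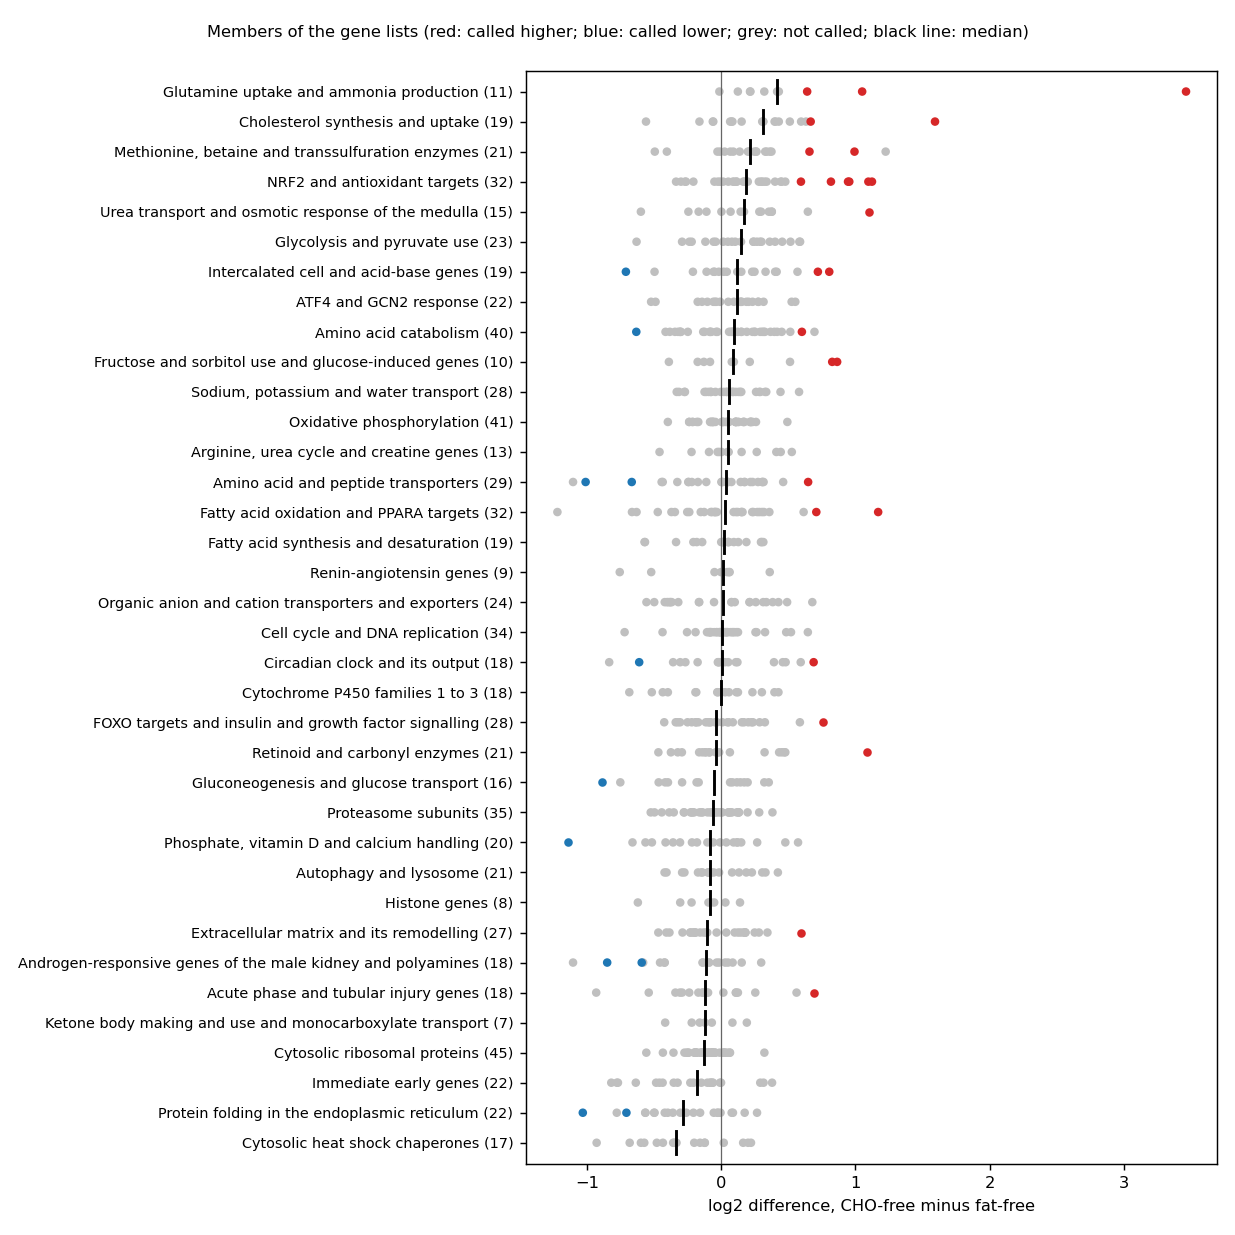
Log2 difference of every measured member of the 36 functional gene lists, CHO-free minus fat-free (points: red called higher, blue called lower, grey not called), with each list's median (black line) and its number of measured members in brackets. Medians run from -0.33 for the 17 cytosolic heat shock chaperones to 0.42 for the 11 ammonia genes, and most members of most lists are not called.

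Chaperones were among the genes lower on CHO-free. Manf, a protein secreted under stress of the endoplasmic reticulum, read 8.69, 8.99, 8.37, 7.95 and 8.30 on CHO-free and 9.42, 9.76, 9.38 and 9.40 on fat-free arrays, lower by 1.03 ± 0.25 (log2, SE, adjusted p = 0.0218, limma). Hspa5, the chief chaperone of that compartment, read 10.09, 10.32, 10.04, 9.72 and 10.01 against 10.98, 10.92, 10.62 and 10.45, lower by 0.71 ± 0.15 (log2, SE, adjusted p = 0.0104, limma). Neither overlapped between the diets. Of 22 genes of protein folding there, these 2 were lower and none higher, 18 of 22 differences were negative and the median was -0.28. The mean of the 22 was 8.69 to 8.82 on CHO-free, 8.84 to 9.20 on fat-free and 8.87 to 9.31 on Control arrays.

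With the Gapdh covariate the difference of Manf was -0.74 (adjusted p = 0.112, limma) and that of Hspa5 -0.65 (adjusted p = 0.0446, limma), so that 1 of the 22 was called, and without CHO-free replicates 3 and 4 neither of these genes was. Manf was also lost without fat-free replicate 2, fat-free replicate 4, CHO-free replicate 3 or CHO-free replicate 4, and Hspa5 without fat-free replicate 2. Of 17 cytosolic heat shock chaperones none was called in limma (7 at an unadjusted p under 0.05), with a median of -0.33 that became -0.21 with the Gapdh covariate. Hsp90aa1, the inducible HSP90, read 8.51 to 9.87 against 9.45 to 10.27 (difference -0.93 ± 0.26, adjusted p = 0.0535, limma), and Chordc1, its cochaperone, differed by -0.57 ± 0.15. With each array's median subtracted, 4 folding genes and 2 heat shock chaperones were called lower, and without CHO-free replicate 2 there were 4 and 3.

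A leukocyte gene was lower on CHO-free. Tyrobp, an adaptor of myeloid receptors, read 6.51, 6.51, 6.32, 6.39 and 6.66 against 7.23, 7.18, 6.94 and 7.23, lower by 0.67 ± 0.16 (log2, SE, adjusted p = 0.0225, limma). It was the only called marker of 18, of which 17 had negative differences (median -0.21). The mean of the 18 was 5.78 to 5.92 on CHO-free, 6.01 to 6.17 on fat-free and 6.00 to 6.53 on Control arrays. The complement gene C1qb, made by macrophages, differed by -0.77 ± 0.23 and Ptprc, the common leukocyte antigen CD45, by -0.20 ± 0.22. The call of Tyrobp was lost with the Gapdh covariate (adjusted p = 0.0713, limma), without CHO-free replicates 3 and 4 together and without any 1 of fat-free replicates 1, 2 and 4 and CHO-free replicates 3 and 4.

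**Figure D4:**
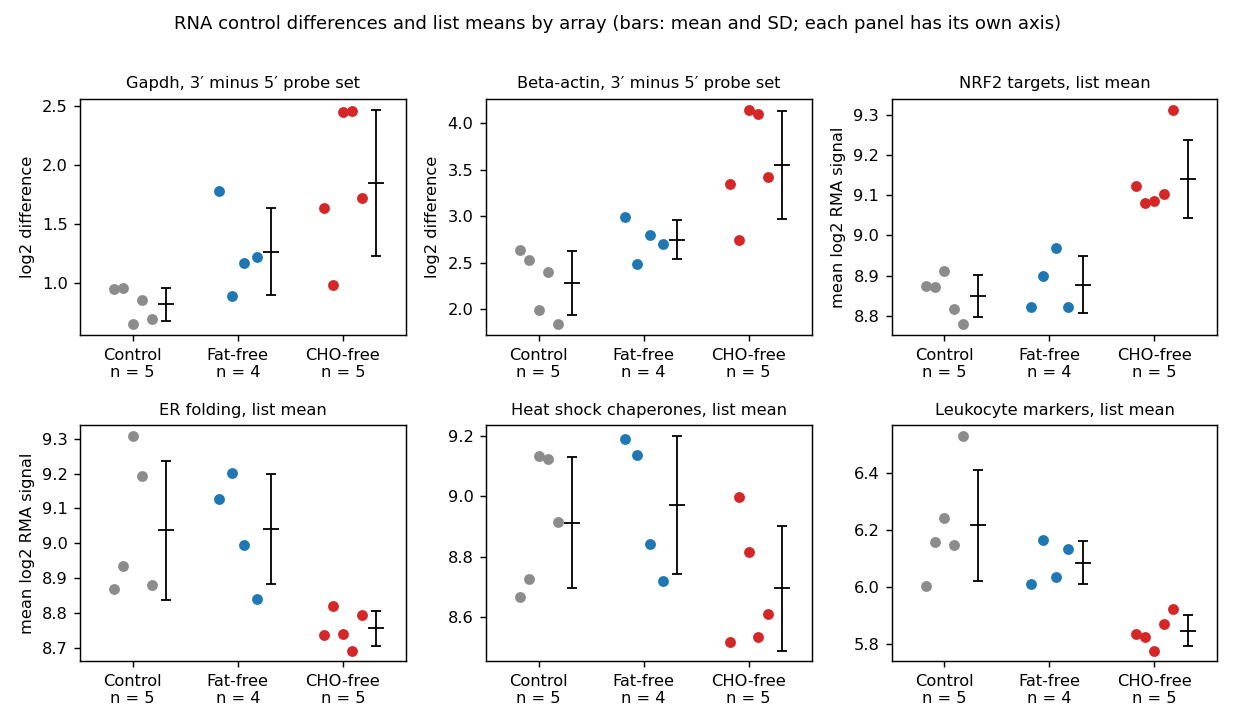
Gap between 3′ and 5′ control probe sets of Gapdh and beta-actin (log2) and mean log2 signal of 4 gene lists on each array (points), with the mean and SD of each diet (bars), for Control (n = 5), fat-free (n = 4) and CHO-free (n = 5); the vertical axes differ. CHO-free arrays reach a Gapdh gap of 2.45, and their means for protein folding and leukocyte markers lie below, and for NRF2 targets above, every fat-free array.

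Markers of other cells gave few calls. Cldn16, a paracellular magnesium channel protein of the thick ascending limb, was lower by 0.82 ± 0.16 (log2, SE, adjusted p = 0.00403, limma), and with the Gapdh covariate its difference was -0.58, under the fold minimum. The call was also lost without CHO-free replicates 3 and 4 together (adjusted p = 0.0913, limma) and in the fit of the 9 arrays alone (adjusted p = 0.0556, limma). It was the only called marker of 8 for that segment (median -0.25). Umod and Slc12a1, defining genes of that segment, differed by -0.11 ± 0.07 and -0.33 ± 0.12. None of the markers of distal convoluted tubule (5), principal cells (7), podocytes (5), endothelium (8), stroma (6), red cell precursors (4) or adrenal cortex (6) was called in limma, with 3, 2, 0, 2, 0, 0 and 0 at an unadjusted p under 0.05. Without CHO-free replicate 2 the distal convoluted tubule genes Pvalb and Slc8a1 were called lower. The log2 differences of the markers with the lowest p were Pvalb -0.60, Slc8a1 -0.56, Scnn1g 0.33, Avpr2 0.29, Nphs1 -0.15, Synpo -0.10, Emcn -0.63, Tek -0.32, Myh11 0.38, Dcn -0.20, Hbb-b2 -0.43, Hba-a2 -0.19, Star -0.22 and Cyp11a1 0.14. Adipoq, made by fat cells, ranged over 5.79 to 6.83 on CHO-free and 3.41 to 5.76 on fat-free arrays (1.53 ± 0.71, not called, though the groups did not overlap), and Lep, also of fat cells, differed by 0.14. The mean of the 5 fat cell markers was 5.36 to 5.79 against 4.74 to 5.69, and with it as a covariate 446 probe sets were called.

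Single members passed in several other lists. The transcription factor Hlf, an output of the circadian clock, was higher by 0.69 ± 0.15 and the clock receptor Rora lower by 0.61 ± 0.16 (log2, SE), while Dbp (0.59 ± 0.30), Per1 (0.46 ± 0.22) and Arntl (-0.31 ± 0.20) did not pass. The cell cycle inhibitor Cdkn1a was higher by 0.76 ± 0.18, the keratin Krt8 by 0.69 ± 0.12 and the basement membrane collagen Col18a1 by 0.59 ± 0.16. They were the only calls among 18 clock genes, 28 FOXO and insulin genes (median -0.04), 18 acute phase and injury genes (-0.12) and 27 matrix genes (-0.10). With the Gapdh covariate none of Hlf, Rora, Cdkn1a, Krt8 and Col18a1 was called, and apart from Krt8 none was called without CHO-free replicates 3 and 4 together or in the fit of the 9 arrays alone. Single arrays also ended calls: fat-free replicates 2 and 4 for Hlf, all but CHO-free replicates 2 and 5 and fat-free replicate 3 for Rora, fat-free replicates 1 and 4 and CHO-free replicates 3 and 4 for Cdkn1a, and all but CHO-free replicate 2 for Col18a1.

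By the brightest probe set of each listed gene, many lists showed no call in limma. This held for 45 cytosolic ribosomal proteins (median -0.12), 41 genes of oxidative phosphorylation (0.05), 35 proteasome subunits (-0.06), 34 cell cycle genes (0.01), 28 of sodium, potassium and water transport (0.06), 24 organic ion transporters (0.01), 22 immediate early genes (-0.18), 21 of autophagy (-0.08), 18 cytochromes P450 (0.00), 13 of arginine and urea (0.05), 9 of the renin-angiotensin system (0.01) and 8 histones (-0.09). Unadjusted p under 0.05 was reached by 3284 of all 17097 genes in the fit by brightest probe set. Of the listed genes it was reached by 10, 6, 9, 7, 8, 12, 4, 5, 7, 2, 2 and 1 in that order. Among those named by their rank in p, the log2 differences were Gadd45g -0.78, Mme -0.76, Tk1 0.65, H3f3a -0.62, Rps9 -0.56, Slco1a6 -0.56, Psma1 -0.52 and Agtr1a -0.52. Tk1, thymidine kinase of dividing cells, was called higher in 11 of 21 other settings, among them array weights, the Gapdh covariate, the fit without CHO-free replicates 3 and 4 and genes in place of probe sets. Without CHO-free replicate 2, Mme, Rps9, H3f3a and Psma1 were called lower, and 2 organic ion transporters and 1 gene of sodium, potassium and water transport were called as well. Agtr1a, the angiotensin receptor, and Slco1a6, an organic anion carrier, passed the false discovery rate but not the fold minimum (adjusted p = 0.00299 and 0.00539, limma). The lists do not hold every gene of a function. The cytochrome P450 Cyp2j13 and the organic anion transporters Slc22a26 and Slc22a27, called lower, are not on the lists named here.

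Probe sets of 1 gene were often not called together, which says nothing on their direction. Of the 163 genes called higher, 88 had more than 1 probe set, of which 16 had at least 2 called and 57 had their brightest called. Of the 215 called lower, 131 had more than 1, of which 20 had at least 2 called and 53 had the brightest called. List members are given here by their brightest set, and the genes with the largest differences by the set that was called.

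Dimmer probe sets were called for some list members whose brightest set was not. The organic anion uptake transporters of the proximal tubule Slc22a6 (OAT1) and Slc22a8 (OAT3), which are neighbours, were higher by 0.87 ± 0.17 and 0.91 ± 0.17 on the log2 scale (SE) by such sets, and by their brightest sets differed by 0.38 ± 0.16 and 0.68 ± 0.20. A dim set of the carnitine carrier Slc22a5 differed by -0.94. Among chaperone genes, dimmer sets were called lower for Dnaja1 (-1.01) and Hspa4 (-1.22), and for the stress transcription factor Xbp1 (-0.79 and -0.97). The others were Me1, malic enzyme, which is also on the NRF2 list (-0.62), Shmt2 (0.70), Igf1 (-0.74), Igfbp4 (-0.70), Aldh8a1 (-0.66), Mcm2 (0.59), Rpl22 (-0.68), Klf4 (0.64) and Wipi1 (0.68). These were looked for after the values were seen.

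**Figure D5:**
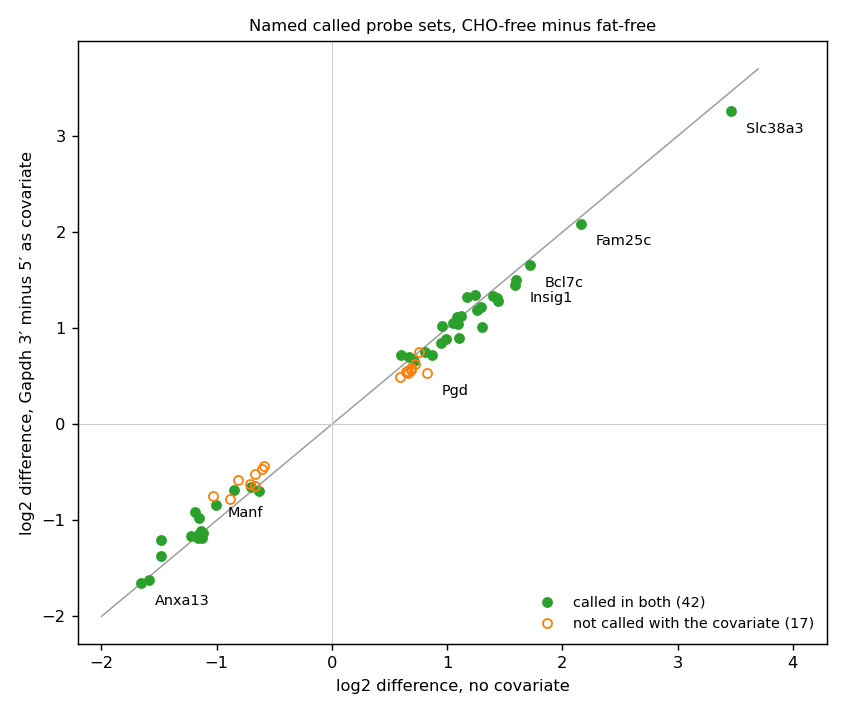
Log2 difference, CHO-free minus fat-free, of the 59 called probe sets named by rule, without a covariate (horizontal axis) and with each array's Gapdh 3′ minus 5′ gap as a covariate (vertical axis). The line marks equal values. Points lie close to the line; 42 stayed called (filled) and 17 did not (open), the latter mostly with small differences, and Slc38a3 went from 3.46 to 3.26.

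Beside Control, the diets stood as follows. Against Control, Slc38a3 differed by 4.09 on CHO-free and 0.63 on fat-free, Glud1 by 1.43 and 0.38, Insig1 by 1.52 and -0.07, Nqo1 by 1.12 and 0.03, Gsta2 by 1.51 and 0.39 and Slc34a3 by -1.63 and -0.50 on the log2 scale. Slc22a26 differed from Control by -0.58 on CHO-free and by 0.57 on fat-free. The pairs of values share the 5 Control arrays. On these the Gapdh gap was 0.82 ± 0.14 and the beta-actin gap 2.28 ± 0.35 (log2, SD, n = 5). Both lay below the means of CHO-free (1.85 and 3.55) and fat-free (1.27 and 2.75) arrays. The part of RNA integrity in the differences from Control was not tested.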

How the data were processed

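Whole kidney RNA was hybridised to Affymetrix HT MG-430 PM arrays. The deposited values are log2 signals that the authors made with Robust Multichip Average (RMA) normalization, separately for the fasting cohort, which was not used here. Of the diet cohort, 27 arrays in 6 groups entered 1 limma fit (limma 3.58.1, R 4.3.3), and the contrast was CHO-free minus fat-free. All 45141 probe sets were tested without a filter on low signals, with Benjamini-Hochberg adjustment over all of them. Calls required an adjusted p under 5% and a change of at least 1.5-fold. The other groups lent their spread to the fit, and p-values measure the spread between mice. Arrays give no read depth, and the number of arrays limits the precision. Platform annotation gave 1 gene symbol to 28898 probe sets, several to 551 and none to 15692, and genes were taken by their brightest probe set. Named genes were the 12 largest called rises and 12 largest falls without overlap between the groups (each by its called probe set with the lowest p), all measured ammonia genes, up to 4 called members of each other list, and the 2 lowest p of lists without a call. Other list members, Abcc2 and Ephx1 among them, and the solute carriers Slc13a1, Slc13a2 and Slc26a1 were added after their values were seen. The comparison, gene lists and tests were chosen with earlier results of these data known. Alternatives were other normalizations, filters, weights, covariates and leaving out arrays, and the scripts were tested on simulated data.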

Additional observations from a re-analysis of the deposited data

Results flagged for a closer look

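In 9 of 240 groups of values tested, 1 array stood apart from the others of its diet by Dixon's gap test, in which the gap to the nearest array is divided by the whole range and set against Dixon's critical value. Chance alone sets apart about 1 in 20 groups. No explanation was tested for these.

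On CHO-free arrays, replicate 2 was lowest for Bcl7c (ratio 0.714) and for Hlf (0.787). On fat-free arrays, replicate 4 was highest for Cpeb3 (0.921) and lowest for Gpc1 (0.886), and replicate 3 was lowest for Glud1 (0.885) and for Pvalb (0.853). Fat-free replicate 1 was lowest for Tkt (0.888) and for the histone H3f3b (0.844), and fat-free replicate 2 was highest for Manf (0.875), whose call was lost without it.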

How the results depend on the processing

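Against 564 calls (283 higher, 281 lower), the fit of the 9 arrays alone gave 268 (153 and 115), the Gapdh covariate 288 (166 and 122), and leaving out CHO-free replicates 3 and 4 gave 212 (134 and 78). Without a fold minimum there were 1269 (677 and 592), limma's treat at 1.5-fold gave 8 (6 and 2), and genes in place of probe sets gave 292 (141 and 151). Chosen after seeing the data, the beta-actin gap as a covariate gave 228 (135 and 93) and the Gapdh gap in the 9-array fit 99 (70 and 29). Leaving out 1 array gave 338 to 1507 calls, 193 to 559 higher and 142 to 948 lower, the most without CHO-free replicate 2. Fewer arrays or a higher bar enter some of these fits by construction, and otherwise the cause was not tested. None of the 564 called differences, picked from these same arrays, changed sign in a fit that tested it. The fit of probe sets above the median signal tested 547 of them and that of genes 269. The small uncalled differences of Slc9a3 (-0.19 to 0.08), H3f3b (-0.38 to 0.06) and Hbb-b2 (-0.55 to 0.03) did change sign. Of 59 named called probe sets, 20 were called in every setting, 42 with the Gapdh covariate and 41 in the 9-array fit, and 15 of 57 named ones that were not called passed in some setting. The Gapdh gap between diets was 0.43 to 0.80 on leaving out 1 array, with exact p of 0.0857 to 0.314. No paired analysis was possible because replicate numbers are only the order of the records and pair no mice.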
